A study of Mus musculus with 4 samples.

Results

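The c-Kit+ Lin- progenitors of mouse bone marrow were compared with short-term haematopoietic stem cells (ST-HSC), which lie upstream of them. The fractions were chosen by their labels, and they account for 2 of the 4 samples of a study that followed gene expression through haematopoietic differentiation. All 4 fractions were sorted from bone marrow of female C57BL6 mice aged 8 weeks, with no genetic change or treatment named in the labels. The progenitor sample is labelled c-Kit-positive and lineage-negative. ST-HSC were lineage-negative cells positive for CD34, c-Kit and Sca-1, a phenotype abbreviated CD34+KSL. The remaining fractions, used to place single genes and in the choice of each gene's brightest probe, were long-term stem cells (LT-HSC, CD34-negative KSL cells) and differentiated lineage-positive cells (Lin+). A protocol text shared by all samples describes the progenitors as Sca-1-negative and also mentions lineage-positive cells, so how Sca-1 was gated in the progenitor sample is uncertain. The labels do not say how many mice were pooled. Each fraction was hybridised to 1 single-colour Agilent array, so no difference has a replicate check and no test was possible.

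Short-term stem cells rebuild blood for a limited time after transplantation and pass through multipotent stages in which lymphoid, myeloid and erythroid fates are undecided. The c-Kit+ Lin- compartment of the marrow is dominated by myeloid progenitors, which make granulocytes and monocytes, and by progenitors committed to red cells and megakaryocytes. It holds few lymphoid progenitors, which carry less c-Kit.

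Levels are given as log2 of the signal over the 75th percentile of the array, so 0 marks that percentile and 1 unit is a 2-fold change. The percentile lay at 137 intensity units on the progenitor array and 217 on the ST-HSC array, and 41.1% and 43.9% of the probes were well above background. A difference is always the progenitor level minus the ST-HSC level. Its ± is the spot error computed by the scanner software, with a median of 0.20, and says nothing about how mice vary. Calls required a 2-fold difference and a signal well above background on at least 1 of the arrays. Where 1 side was not, the difference is a lower bound, written as at least N-fold.

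Of 20284 named genes, 12607 were compared. In progenitors 1266 genes (10.0%) were at least 2-fold higher and 1284 (10.2%) at least 2-fold lower than in ST-HSC, or 20.2% in either direction. These shares are the base against which the list counts below are read, and 7350 of the genes compared lay above 0. The balance was even in number and not in size: 177 genes were at least 8-fold higher and 26 at least 8-fold lower, while 82 were at least 16-fold higher and 1 was at least 16-fold lower. These size counts include bounds and were not repeated with other scalings. The lowest detected level was -2.87 in progenitors and -3.39 in ST-HSC, which left more room for bounds on the higher side. The median gene differed by 0.17, or by 0.21 among the 11186 genes measured on both arrays. How many genes lay on each side depended on the scaling: genes higher in progenitors made up 49.6% of the called genes, but 36.7% with arrays scaled to their medians, 38.9% with quantile normalization, 29.6% with the percentile taken over detected probes, 33.1% with the median gene set to 0 and 13.8% with scaling to the spike-in controls. The median measured gene then stood at 0.05 with median scaling, 0.00 with quantile normalization, -0.05 with the detected-probe percentile and -0.42 with the spike-ins. A gene well above background only on the progenitor array could enter the comparison only as higher, and one detected only in ST-HSC only as lower, so for lists with several bounds the counts are also given for the members measured on both arrays. In sorted populations, fewer cells of a type and less RNA per cell cannot be told apart.

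**Figure D1:**
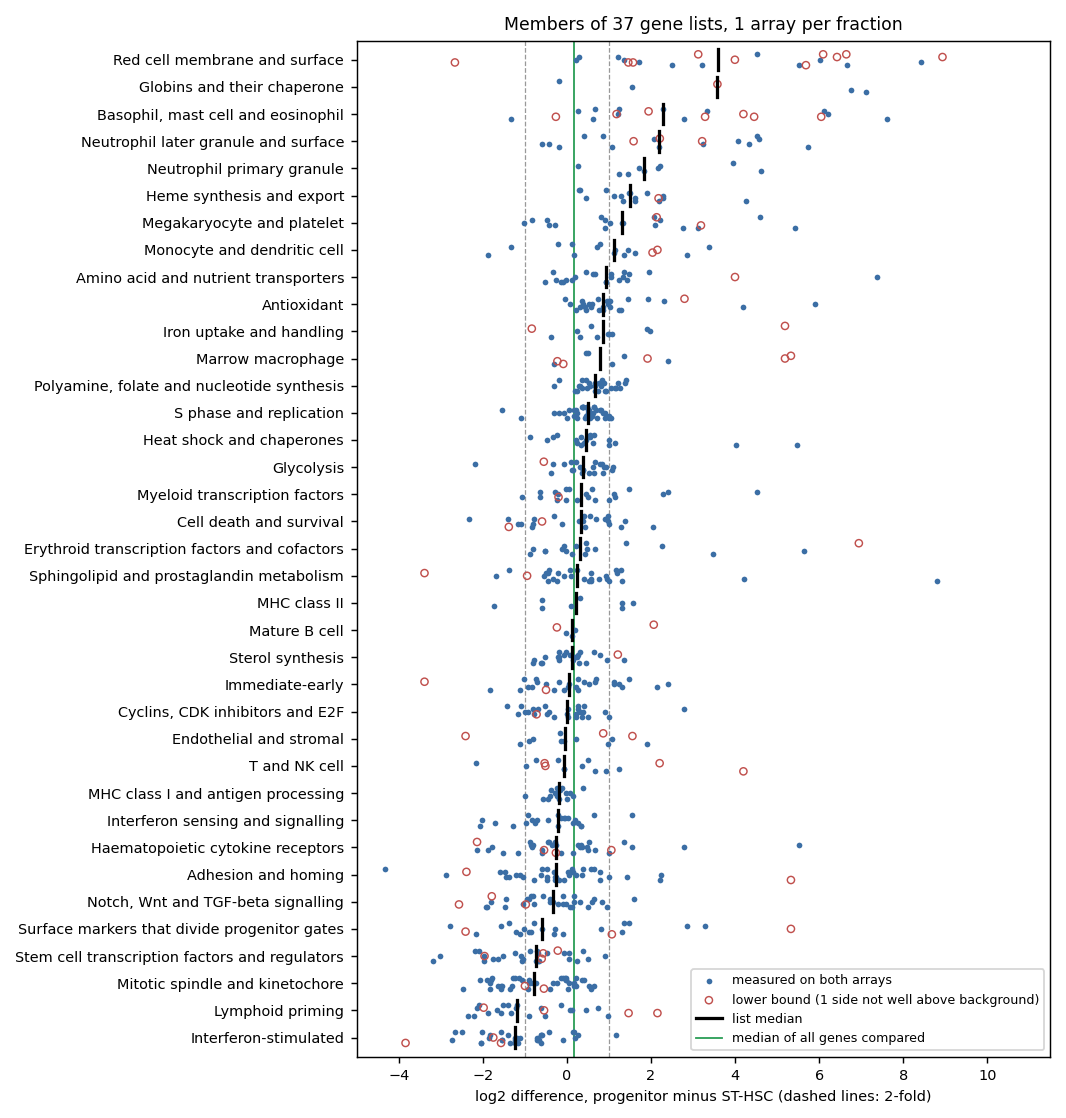
Each point is 1 gene of 1 of 37 lists, placed at its log2 difference of progenitors from ST-HSC, with filled points measured on both arrays and open points lower bounds. Black ticks mark list medians, the green line marks the median of all genes compared (0.17) and dashed lines mark 2-fold, and the red cell list sits highest (3.60) and the interferon-stimulated list lowest (-1.23).

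The genes of the sorting antigens were lower in progenitors. Cd34 had a level of 7.51 in progenitors and 8.53 in ST-HSC, a difference of -1.02 ± 0.20. Ly6a, which encodes Sca-1, had 2.28 in progenitors and 3.12 in ST-HSC (-0.85 ± 0.20), so its RNA was well above background in both fractions. Kit, the receptor for stem cell factor, had 4.42 in progenitors and 5.004 in ST-HSC (-0.59 ± 0.20). Among these 3 genes Cd34 alone reached 2-fold, and just barely.

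Surface markers that divide the progenitor compartment differed in both directions. Of 23 compared, 7 were at least 2-fold higher and 8 at least 2-fold lower, with a median of -0.59. Markers of myeloid and erythroid progenitors were on the higher side: Fcgr3 and Fcgr2b, the Fc-gamma receptors III and IIb used to gate granulocyte-monocyte progenitors, differed by 3.27 ± 0.22 and 1.48 ± 0.20. Itga2b, which encodes CD41, had a level of 2.22 in progenitors and 0.92 in ST-HSC. Vcam1, at background in ST-HSC, was at least 40.2-fold higher in progenitors. Markers of stem and multipotent cells were on the lower side. Procr, the endothelial protein C receptor, had -0.52 in progenitors and 2.27 in ST-HSC (-2.79 ± 0.21), and Esam, an adhesion molecule of stem cells, had 0.36 in progenitors and 1.74 in ST-HSC. Thy1 differed by -2.16 ± 0.21, and Emcn, endomucin, was not well above background in progenitors and was at least 5.33-fold lower. Cd48, which separates the most primitive stem cells from later ones, gave 4.88 in progenitors and 5.78 in ST-HSC, short of 2-fold. The label was checked with Car1 and Klf1, markers of erythroid progenitors, and with Flt3 and Dntt, markers of lymphoid-primed multipotent cells. Car1 and Klf1 were higher in progenitors and Flt3 and Dntt lower, with values given below, and the data did not go against the label. LT-HSC differed from ST-HSC in the same directions for all of these genes, so the check cannot tell progenitors from LT-HSC.

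Some erythroid transcription factors were far higher in progenitors. Klf1, the factor that switches on the adult red cell programme, had a level of 3.10 in progenitors and -2.55 in ST-HSC, where its signal of 37.2 intensity units was only just above background. Its difference was 5.64 ± 0.30. Gata1, the master regulator of erythroid and megakaryocyte genes, had 6.15 in progenitors and 2.69 in ST-HSC (3.47 ± 0.20). The repressor gene Gfi1b had 5.59 in progenitors and 3.33 in ST-HSC, and Zfpm1, the GATA1 partner FOG-1, had 6.30 in progenitors and 4.90 in ST-HSC. Cited4, a transcriptional coactivator with no signal over background in ST-HSC, was at least 123-fold higher in progenitors. These 5 were the called members among 18 compared, and 0 were called lower, against 10.0% and 10.2% over all genes. Factors that stem cells already use did not separate the fractions in this way. Gata2 had 4.49 in progenitors and 3.83 in ST-HSC, Tal1 had 4.64 in progenitors and 4.16 in ST-HSC, and Lmo2 had 6.71 in progenitors and 7.24 in ST-HSC, all short of 2-fold. Myb (6.66 in progenitors and 6.69 in ST-HSC) and Nfe2 (6.18 in progenitors and 6.26 in ST-HSC) were within the spot error of no difference. Since most members differed little, the list median of 0.31 was close to that of all genes and turned to -0.31 with spike-in scaling.

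Genes of the red cell membrane had a median of 3.60, the highest of the 37 lists next to 3.58 for the 5 globin list genes. The order of these lists is not stable, since the globin median ranged from 1.09 to 4.15 over the alternatives and the red cell median from 2.85 to 3.78. Of 22 compared, 19 were at least 2-fold higher and 1 was lower, and of the 12 measured on both arrays 10 were higher and 0 lower. The lower member was a bound, with its progenitor signal not well above background and a difference of -2.67 or below. Car1, a carbonic anhydrase and an early red cell marker in the mouse, gave 8038 intensity units in progenitors and 37.3 in ST-HSC, a difference of 8.41 ± 0.28. Epor, the erythropoietin receptor, had a level of 4.84 in progenitors and -0.68 in ST-HSC (5.52 ± 0.21). The water channel gene Aqp1 had 7.21 in progenitors and 1.18 in ST-HSC, and Tspo2, a cholesterol-binding protein of red cell precursors, had 5.70 in progenitors and -0.98 in ST-HSC. Rhd encodes a Rhesus blood group protein. With its ST-HSC signal at background, it was at least 489-fold higher in progenitors, the highest bound or difference among all genes compared. Cldn13, Smim1, which carries the Vel blood group, and Add2, the beta-adducin of the membrane skeleton, were at background in ST-HSC too, with bounds of at least 100.1-fold, 85.8-fold and 68.3-fold higher.

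Some members differed less than these. Slc4a1, the band 3 anion exchanger, had a level of -0.57 in progenitors and -3.06 in ST-HSC and was far below its own level of 8.92 in Lin+ cells. Epb41, protein 4.1, had 5.61 in progenitors and 5.33 in ST-HSC, and Gypc had 5.13 in progenitors and 4.92 in ST-HSC, so neither was called.

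Promoter letters are shown for the red cell and basophil genes because most of these genes were higher and regulators of both lineages bind a known motif. The letters AGATAA, searched on both strands in the 250 bases before the start, are the core to which GATA factors bind. They occurred in 5 of 14 red cell list promoters (35.7%) and 6 of 17 promoters of the list of basophil, eosinophil and mast cell genes (35.3%), against 11.4% of all 27025 promoters and 7.88% of the 10119 promoters of genes compared. All 5 red cell genes with the motif were at least 2-fold higher, as were 3 of the 6 basophil list genes, of which 1 was lower. Over the whole lists 19 of 22 and 14 of 19 were higher. The red cell median was 5.52 with the motif and 4.53 without, and the basophil list median was 1.71 with the motif and 2.29 without. A match is a description of the letters and not evidence of binding. The 100-base windows below come from RefSeq on GRCm38.p6 and read 5′ to 3′ along the gene, with the motif in capitals, 43 bases before the start for Rhd (chr4:134864436-134864535, plus strand), 54 for Epor (chr9:21963578-21963677, minus strand) and 31 for Prss34, the basophil protease gene described below (chr17:25298294-25298393, plus strand).
Rhd: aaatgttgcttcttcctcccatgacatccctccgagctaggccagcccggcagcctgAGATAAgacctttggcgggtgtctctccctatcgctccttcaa
Epor: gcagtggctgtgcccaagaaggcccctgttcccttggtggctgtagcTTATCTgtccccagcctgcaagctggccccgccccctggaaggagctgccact
Prss34: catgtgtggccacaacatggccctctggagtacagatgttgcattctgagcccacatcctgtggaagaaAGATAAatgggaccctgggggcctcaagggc

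Globin RNA was already present in progenitors. Hba-a1 and Hba-a2, the adult alpha-globin genes, had levels of 5.09 and 7.53 in progenitors, against -2.02 and 0.77 in ST-HSC. Their differences were 7.12 ± 0.25 and 6.76 ± 0.20. Both were higher still in Lin+ cells, at 11.76 and 11.29. The beta-globin probes disagreed among themselves: Hbb-bs was at least 11.9-fold higher in progenitors, Hbb-b2 had 2.04 in progenitors and 0.49 in ST-HSC, and Hbb-bt had 4.77 in progenitors and 4.97 in ST-HSC. These genes are near-identical copies, and the probes of a copy could bind RNA of another, so the assignment of signal to single globin genes is uncertain.

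Genes of heme synthesis and export, a list that also holds Blvrb and Slc25a37, were mostly higher in progenitors. Of 17 compared, 13 were at least 2-fold higher and 0 lower, 17 lay above 0, and the median was 1.497. With spike-in scaling 7 of the 17 were called and the median was 0.87, and of the 16 measured on both arrays 12 were called. Alas1, the rate-limiting enzyme of heme synthesis outside the red cell lineage, had a level of 7.65 in progenitors and 5.45 in ST-HSC (2.19 ± 0.20). Alas2, its erythroid counterpart, was at least 4.52-fold higher in progenitors against background in ST-HSC, but its signal was still only 59.4 intensity units. The later enzyme gene Cpox differed by 2.29 ± 0.20. Abcb6, a porphyrin transporter, differed by 2.29 ± 0.21. Blvrb, the biliverdin reductase abundant in red cells, had 5.84 in progenitors and 1.58 in ST-HSC and the largest difference of the list, 4.26 ± 0.20. The smallest were those of Slc25a37, mitoferrin (4.10 in progenitors and 3.80 in ST-HSC), and Flvcr1, a heme exporter (0.97 in progenitors and 0.67 in ST-HSC). Of 12 iron genes, 4 were higher and 0 lower (median 0.85), with 3 higher among the 10 measured on both arrays. Slc40a1, the iron exporter ferroportin, was at least 36.4-fold higher against background in ST-HSC, and the reductase gene Steap3 differed by 1.91 ± 0.20. Slc11a2, the iron transporter DMT1, differed by 1.97 ± 0.21. Tfrc, the main transferrin receptor, had 0.90 in progenitors and 0.19 in ST-HSC and was not called.

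In the megakaryocyte and platelet list 12 of 20 genes were at least 2-fold higher and 1 was lower (median 1.32), and of the 18 measured on both arrays 10 were higher and 1 lower. With spike-in scaling 9 were higher and 4 lower. Pf4, platelet factor 4, had a level of 7.92 in progenitors and 2.50 in ST-HSC (5.42 ± 0.20). Vwf, von Willebrand factor, had 4.45 in progenitors and -0.13 in ST-HSC, and Treml1, a platelet granule receptor, had 4.27 in progenitors and 1.15 in ST-HSC. Itgb3, the beta-3 integrin subunit, had 3.13 in progenitors and 0.93 in ST-HSC. Mmrn1, multimerin, was the member called lower, at -1.08 in progenitors and -0.05 in ST-HSC. Fli1, an ETS factor of the lineage, gave 3.29 in progenitors and 3.73 in ST-HSC.

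Genes of basophils, mast cells and eosinophils differed by large amounts. Of 19 compared, 14 were at least 2-fold higher and 1 was lower (median 2.29), and of the 12 measured on both arrays 8 were higher and 1 lower. Prg2, eosinophil major basic protein, had a level of 6.63 in progenitors and -0.98 in ST-HSC (7.61 ± 0.21). Epx, eosinophil peroxidase, had 3.13 in progenitors and -3.08 in ST-HSC, and Prg3 was at least 66.2-fold higher against background in ST-HSC. Ear2 and Rnase2a, ribonucleases of eosinophil granules, had 5.21 and 4.20 in progenitors, against -1.36 and -2.32 in ST-HSC. They belong to a family of close copies, so their signals may not be separate.

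On the basophil side, Prss34 had 3.36 in progenitors and -2.76 in ST-HSC (6.12 ± 0.30) and Mcpt8, another basophil protease, had 3.31 in progenitors and 1.02 in ST-HSC. Hdc, which makes histamine, had 5.99 in progenitors and 2.66 in ST-HSC, and the IL-33 receptor Il1rl1 had 1.89 in progenitors and -0.90 in ST-HSC. Fcer1a, the alpha chain of the IgE receptor, was at least 9.75-fold higher against background in ST-HSC. Not all members shared this direction. Cpa3, mast cell carboxypeptidase, had 2.79 in progenitors and 2.17 in ST-HSC and was not called, and Slc18a2, the vesicular monoamine transporter, was lower at 0.26 in progenitors and 1.58 in ST-HSC (-1.33 ± 0.21). Il5ra, the receptor chain that eosinophil precursors acquire, was not well above background in progenitors (-3.18), with -2.60 in ST-HSC.

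Neutrophil genes were higher at both granule stages. Of 9 primary granule genes 8 were higher and 0 lower (median 1.82). Elane, neutrophil elastase, had a level of 8.73 in progenitors and 4.12 in ST-HSC (4.61 ± 0.20), and Ms4a3, a membrane protein of granulocyte-monocyte progenitors, had 7.40 in progenitors and 3.46 in ST-HSC. Ctsg, cathepsin G, differed by 2.21 ± 0.20 and Mpo, myeloperoxidase, by 1.46 ± 0.20. The ST-HSC signals of both were high already, at 63872 intensity units for Ctsg and 241467 for Mpo. Spots were not filtered for saturation. Of 17 later genes 12 were higher and 0 lower (median 2.18), with 9 higher among the 14 measured on both arrays. S100a8, a calcium-binding protein of neutrophils, had 6.21 in progenitors and 0.48 in ST-HSC, Camp, which encodes cathelicidin, had 3.24 in progenitors and -0.84 in ST-HSC, and Chil3 had 3.40 in progenitors and -1.16 in ST-HSC. Ltf, lactoferrin, was called at 1.07 ± 0.30 with only 47.99 intensity units in progenitors and 36.1 in ST-HSC.

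Among 17 monocyte and dendritic cell genes 9 were higher and 2 lower (median 1.13), and of the 14 measured on both arrays 7 were higher and 2 lower. With spike-in scaling 5 of the 17 were higher and 2 lower. Cd14, the lipopolysaccharide co-receptor, was higher by 3.39 ± 0.21, and Ly6c1 by 2.86 ± 0.20. Csf1r, the M-CSF receptor, had 6.71 in progenitors and 5.36 in ST-HSC. The 2 lower members were Flt3 and Tcf4, both of which also stand in the lymphoid list. Of 22 myeloid transcription factors 6 were higher and 1 lower. Cebpe, the C/EBP factor of granule maturation, had 5.75 in progenitors and 1.23 in ST-HSC (4.52 ± 0.20), Cebpd had 6.13 in progenitors and 3.85 in ST-HSC, and Irf8, which directs monocyte and dendritic fates, had 6.58 in progenitors and 5.43 in ST-HSC. Cebpa (2.76 in progenitors and 1.77 in ST-HSC), Spi1, which encodes PU.1 (0.40 in progenitors and -0.18 in ST-HSC), and Gfi1 (4.16 in progenitors and 3.93 in ST-HSC) did not reach 2-fold. Cebpb had 4.69 in progenitors and 5.33 in ST-HSC. The median of the factors, 0.34, changed sign with spike-in scaling (-0.28).

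**Figure D2:**
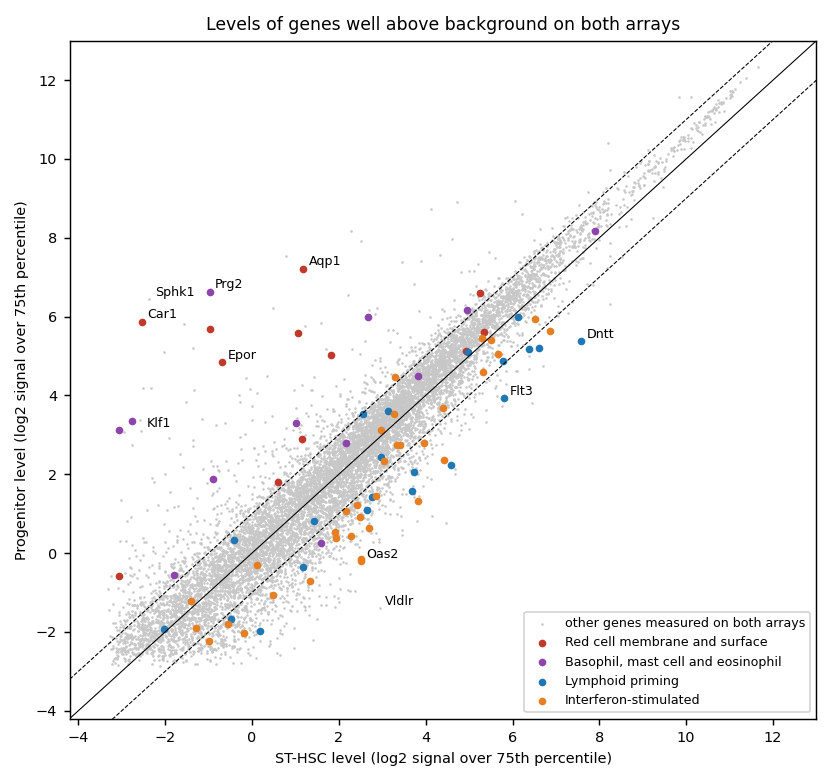
Each point is a gene well above background on both arrays, with its progenitor level against its ST-HSC level (log2 signal over the 75th percentile of the array), a solid line of equality and dashed lines at 2-fold. Red cell genes such as Car1 (5.87 in progenitors, -2.54 in ST-HSC) lie far above the line and interferon-stimulated genes such as Oas2 (-0.21 in progenitors and 2.51 in ST-HSC) below it.

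Of 35 cytokine receptor genes 5 were higher and 6 lower (median -0.26), or 14.3% and 17.1%, against 10.0% and 10.2% over all genes. With spike-in scaling 2 were higher and 15 lower. Besides Epor, Il1rl1 and Csf1r, the gene of the interferon-gamma receptor chain Ifngr1 was higher, at 6.57 in progenitors and 5.02 in ST-HSC. The receptors for G-CSF (Csf3r, 7.38 in progenitors and 7.13 in ST-HSC) and for IL-3 (Il3ra, 4.84 in progenitors and 4.33 in ST-HSC) were not called. Several receptors were lower. Flt3, the receptor that marks lymphoid-primed multipotent cells, had 3.93 in progenitors and 5.81 in ST-HSC (-1.88 ± 0.20). Il2rg, the common gamma chain, had 0.10 in progenitors and 1.87 in ST-HSC, and Il1r1, the IL-1 receptor, had -0.85 in progenitors and 1.28 in ST-HSC. Il18r1 was at background in progenitors and at least 4.41-fold lower. The call of Il12rb1 (-1.52 ± 0.21) is uncertain because its probes disagreed.

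Multipotent cells switch on lymphoid priming genes before they commit, and of 25 such genes 13 were lower by 2-fold or more in progenitors and 2 higher (median -1.20). Of the 21 measured on both arrays 12 were lower and 0 were higher by 2-fold or more. Dntt, terminal transferase, which adds bases at antigen receptor joints, had a level of 5.37 in progenitors and 7.58 in ST-HSC (-2.21 ± 0.20). Ltb, lymphotoxin beta, had 2.22 in progenitors and 4.58 in ST-HSC, and Satb1, a chromatin organiser of lymphoid cells, had 1.58 in progenitors and 3.68 in ST-HSC. Gata3, a T lineage factor, had -1.97 in progenitors and 0.17 in ST-HSC. Rag2, a recombinase subunit, was at least 3.95-fold lower against background in progenitors, and Rag1 was at background in both fractions. Lck (2.05 in progenitors and 3.72 in ST-HSC), Cd27 (1.09 in progenitors and 2.65 in ST-HSC) and Mef2c (-0.35 in progenitors and 1.17 in ST-HSC) were lower as well. Tcf3, which encodes the E2A proteins, had 3.52 in progenitors and 2.55 in ST-HSC, close to 2-fold in the other direction. The 2 members called higher, Ly6d and Ikzf3, were both at background in ST-HSC.

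Among 31 stem cell regulators 14 were at least 2-fold lower and 0 higher (median -0.74), with 13 lower among the 27 measured on both arrays. With normexp, another way to correct for background, 8 were lower, and with spike-in scaling 23 were. Hlf, a transcription factor that marks stem cells, had a level of 0.94 in progenitors and 4.14 in ST-HSC (-3.20 ± 0.21). Hmga2, a chromatin protein of self-renewing cells, had -1.32 in progenitors and 1.70 in ST-HSC. The ETS factor Erg had 0.22 in progenitors and 2.42 in ST-HSC, and Meis1, a Hox cofactor, had 3.99 in progenitors and 5.63 in ST-HSC. Of the Hox genes in the list, Hoxa5 stood at -2.44 in progenitors and -0.34 in ST-HSC, and Hoxa9, just past 2-fold, at -1.38 in progenitors and -0.33 in ST-HSC. Msi2, an RNA-binding regulator of stem cells, had 3.62 in progenitors and 5.39 in ST-HSC, and Prdm16 had -2.42 in progenitors and -0.46 in ST-HSC. Mecom, Hoxb5 and Sox17 were listed and were not well above background in either fraction.

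Of 35 genes of the Notch, Wnt and TGF-beta pathways, 8 were lower and 1 was higher (median -0.34), and of the 30 measured on both arrays 6 were lower and 1 was higher. The lower genes numbered 5 with normexp and 17 with spike-in scaling. Hes5 had a level of -0.74 in progenitors and 1.16 in ST-HSC, and Nrarp, a feedback inhibitor of Notch, had -1.76 in progenitors and 0.06 in ST-HSC. Hes1 and Hey1 were at background in progenitors and were at least 3.46-fold and 5.94-fold lower. The receptor gene Notch1 had -1.94 in progenitors and -2.02 in ST-HSC. Dtx4, a regulator of Notch receptors, was higher, with 4.58 in progenitors and 3.00 in ST-HSC (1.59 ± 0.20). The Wnt receptor gene Fzd4 had -1.56 in progenitors and 0.38 in ST-HSC, and the TGF-beta receptor gene Tgfbr1 had -0.56 in progenitors and 0.90 in ST-HSC.

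Of 38 adhesion and homing genes 10 (26.3%) were lower and 4 (10.5%) higher (median -0.27), against 10.2% and 10.0% over all genes. Of the 36 measured on both arrays 9 were lower and 3 higher. The lower genes numbered 5 with normexp and 16 with spike-in scaling. Vldlr, the very low density lipoprotein receptor, had a level of -1.40 in progenitors and 2.94 in ST-HSC, and its difference of -4.34 ± 0.24 was the lowest among all genes compared. Robo4, which helps anchor stem cells in the marrow, had 0.57 in progenitors and 3.44 in ST-HSC (-2.87 ± 0.21). S1pr1, the receptor that draws cells into the blood along sphingosine-1-phosphate, had 0.35 in progenitors and 1.94 in ST-HSC. Cxcr4, the receptor for the niche chemokine CXCL12, had 2.83 in progenitors and 2.49 in ST-HSC and was not called.

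Interferon-stimulated genes had a median of -1.23, close to the -1.20 of the lymphoid list. Of 37 compared, 22 were at least 2-fold lower in progenitors and 1 was higher, and of the 34 measured on both arrays 19 were lower and 1 was higher. Oas2, an oligoadenylate synthetase that activates RNA decay, had a level of -0.21 in progenitors and 2.51 in ST-HSC (-2.72 ± 0.21). Oasl2 had 1.33 in progenitors and 3.82 in ST-HSC, and Rtp4 had 2.36 in progenitors and 4.42 in ST-HSC. Ifi204, a DNA sensor of a family of close copies, had -0.15 in progenitors and 2.52 in ST-HSC. Ifi44 was at background in progenitors and was at least 14.3-fold lower. The single member called higher, Isg20, an exonuclease, had 4.47 in progenitors and 3.30 in ST-HSC, and it was no longer called with the median gene set to 0. Bst2, tetherin, had 5.46 in progenitors and 5.29 in ST-HSC, and Ifi47, a GTPase, had 5.41 in progenitors and 5.51 in ST-HSC, so some members did not share the difference.

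Genes of the RNA sensors of the interferon pathway were lower too, and most of its signalling genes were not called. Ddx58, which encodes RIG-I, had a level of 1.49 in progenitors and 3.56 in ST-HSC, and Ifih1, which encodes MDA5, had -0.01 in progenitors and 1.70 in ST-HSC. Socs3, a feedback inhibitor of cytokine receptors, had 3.73 in progenitors and 5.76 in ST-HSC (-2.03 ± 0.20). The receptor chains Ifnar1 (1.32 in progenitors and 1.78 in ST-HSC) and Ifnar2 (3.48 in progenitors and 3.62 in ST-HSC) did not reach 2-fold. Neither did the factors Irf9 (3.99 in progenitors and 4.07 in ST-HSC), Stat2 (1.78 in progenitors and 1.99 in ST-HSC) and Irf7 (-0.76 in progenitors and 0.07 in ST-HSC). Of the 23 sensing and signalling genes 4 (17.4%) were lower and 1 (4.35%) was higher, against 10.2% and 10.0% over all genes. The higher one was Ifngr1. Of 17 genes of class I antigen presentation 1 was lower and 0 were higher (median -0.19), and the class I heavy chain gene H2-K1 had 8.47 in progenitors and 8.72 in ST-HSC. Of 8 class II genes 3 were higher and 1 lower, with a median of 0.21 that changed sign in 5 of 11 alternatives.

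Promoters of interferon-stimulated genes are shown because these genes were lower together and many share the element read by interferon-activated factors. The core of that element, 2 copies of GAAA with any 2 bases between them, stood on either strand in the 250 bases before the start in 14 of 27 promoters of the list (51.9%), against 3.46% of all promoters and 3.27% of those compared. The median difference was -1.40 for the 14 genes with the letters and -1.18 for those without, and 8 of the 14 were at least 2-fold lower. The genes printed were chosen after their values were seen: Rsad2, viperin (-0.70 in progenitors and 1.33 in ST-HSC), Gbp2, a guanylate-binding protein (0.65 in progenitors and 2.70 in ST-HSC), Irgm2, an immunity GTPase (0.43 in progenitors and 2.28 in ST-HSC), and Ifit3, which was at background in progenitors and at least 3.37-fold lower. The windows are Rsad2 at chr12:26456518-26456617 on the minus strand, Gbp2 at chr3:142620559-142620658, Irgm2 at chr11:58214868-58214967 and Ifit3 at chr19:34583362-34583461, all on the plus strand of GRCm38.p6 except the first and credited to RefSeq. Capitals mark the motif, written as its reverse complement where it lies on the other strand, and Ifit3 holds 2 copies.
Rsad2: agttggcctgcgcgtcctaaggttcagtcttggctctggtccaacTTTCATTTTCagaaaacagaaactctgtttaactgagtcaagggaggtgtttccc
Gbp2: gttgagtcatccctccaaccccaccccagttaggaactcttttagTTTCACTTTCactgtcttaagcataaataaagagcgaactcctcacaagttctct
Irgm2: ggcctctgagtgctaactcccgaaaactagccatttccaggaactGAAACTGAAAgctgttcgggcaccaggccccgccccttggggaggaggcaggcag
Ifit3: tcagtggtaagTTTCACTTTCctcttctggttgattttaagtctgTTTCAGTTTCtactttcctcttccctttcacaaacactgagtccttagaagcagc

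**Figure D3:**
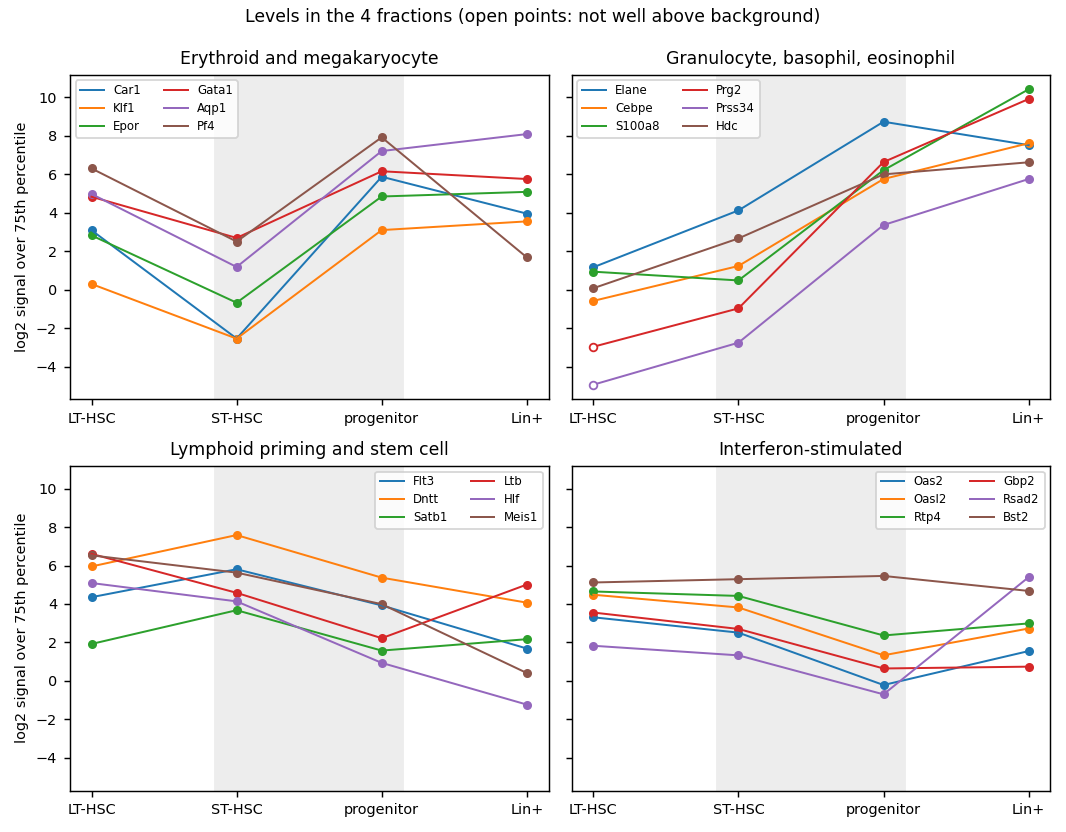
Lines join the level of 1 gene (log2 signal over the 75th percentile) in LT-HSC, ST-HSC, progenitors and Lin+ cells, 1 array each, with open points not well above background and the compared fractions shaded. Car1 and Pf4 dip in ST-HSC between high levels in LT-HSC and progenitors, and Oas2 is lowest in progenitors.

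Set among all 4 fractions, the erythroid and megakaryocyte genes did not simply begin in progenitors. In the order LT-HSC, ST-HSC, progenitors and Lin+ cells, Car1 had levels of 3.09, -2.54, 5.87 and 3.95. Klf1 had 0.29, -2.55, 3.10 and 3.55, Epor had 2.82, -0.68, 4.84 and 5.08, and Gata1 had 4.83, 2.69, 6.15 and 5.75. Each was lowest in ST-HSC. Pf4 had 6.30, 2.50, 7.92 and 1.68, and Vwf had 5.14, -0.13, 4.45 and 0.59, so the LT-HSC level of Vwf was above that of progenitors. Granulocyte genes had another course, with Elane at 1.16, 4.12, 8.73 and 7.51 and Cebpe at -0.59, 1.23, 5.75 and 7.61, both lowest in LT-HSC. Prg2 had -2.97 (background), -0.98, 6.63 and 9.91. Dntt (5.95, 7.58, 5.37 and 4.07) and Flt3 (4.35, 5.81, 3.93 and 1.68) were highest in ST-HSC. Hlf had 5.09, 4.14, 0.94 and -1.23, highest in LT-HSC. Of the interferon-stimulated genes, Oas2 had 3.31, 2.51, -0.21 and 1.55 in the same order and Oasl2 had 4.48, 3.82, 1.33 and 2.73, both lowest in progenitors. Each of these positions rests on 1 array.

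Of 46 mitotic genes, 18 were lower by 2-fold or more in progenitors and 0 higher (median -0.78). Cenpe, the kinesin that moves chromosomes to the spindle equator, had a level of 0.94 in progenitors and 3.42 in ST-HSC (-2.48 ± 0.21). Kif18a had -2.22 in progenitors and -0.16 in ST-HSC, Kif20b had -0.39 in progenitors and 1.45 in ST-HSC, and Kif11, the motor that pushes spindle poles apart, had -0.63 in progenitors and 1.20 in ST-HSC. Aurkb, aurora kinase B, had -2.36 in progenitors and -0.45 in ST-HSC. The 9 kinesins of the list had a median of -1.57, with 5 lower and 0 higher. Several regulators that time mitosis were not called: Cdc20 had 6.16 in progenitors and 5.94 in ST-HSC, Plk1 had 5.50 in progenitors and 5.32 in ST-HSC, Ccnb1 had 4.87 in progenitors and 4.89 in ST-HSC, and Birc5, survivin, had 7.10 in progenitors and 6.70 in ST-HSC. The proliferation antigen gene Mki67 had 3.99 in progenitors and 4.89 in ST-HSC, short of 2-fold.

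The list median of DNA replication genes lay above the median of all genes, and that of the mitotic genes below it. Of 44 S phase genes 3 (6.82%) were higher and 2 (4.55%) lower, against 10.0% and 10.2% over all genes. Above 0 lay 38 of the 44, against 7350 of all 12607 genes. The S phase median was 0.49, or -0.13 with spike-in scaling. Rrm2, a subunit of ribonucleotide reductase, had a level of 5.67 in progenitors and 4.63 in ST-HSC, and the licensing factors Cdt1 (7.005 in progenitors and 6.003 in ST-HSC) and Cdc6 (2.31 in progenitors and 1.30 in ST-HSC) lay at the 2-fold line. None of the 3 was called with the median gene set to 0. Lower were Pola1, the catalytic subunit of DNA polymerase alpha, with 2.10 in progenitors and 3.65 in ST-HSC, and Rfc1, the large clamp loader subunit, with 2.81 in progenitors and 3.90 in ST-HSC. Of 28 cyclins and other cell cycle regulators 1 was higher and 3 were lower (median 0.01), against 10.0% and 10.2% over all genes. The lower genes numbered 2 with the mean of probes and 12 with spike-in scaling. That median kept its sign in 4 of 11 alternatives. The higher gene was Ccne1, the G1 cyclin that starts replication, with 5.37 in progenitors and 2.60 in ST-HSC (2.77 ± 0.20). The CDK inhibitor gene Cdkn1c, which encodes p57, was called lower (-1.75 in progenitors and -0.32 in ST-HSC). Cdkn1a, which encodes p21, lay just short of 2-fold (3.51 in progenitors and 4.51 in ST-HSC) and was not called. Myc had 4.42 in progenitors and 4.41 in ST-HSC.

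Differences followed the length of genes over the whole array, and within the mitotic list too. When genes were split into 5 equal groups by genomic span, the median difference was 0.42, 0.33, 0.19, 0.01 and -0.15 for groups with median spans of 3.62, 10.6, 20.8, 39.8 and 106 kb. Genes at least 2-fold lower made up 6.34% of the shortest group and 17.6% of the longest, while those at least 2-fold higher made up 14.9% and 8.05%. Across genes, which are not independent replicates, Spearman's rho of difference and span was -0.26 over all genes, -0.63 over the mitotic list and -0.35 over the S phase list. Cenpe spans 61.0 kb and Kif20b 53.4 kb, while Cdc20 spans 4.44 kb and Birc5 6.51 kb. Pola1, the lowest S phase gene, spans 328 kb. Aurkb, which spans 6.04 kb and was lower by 1.91 on the log2 scale, is an exception. Its progenitor level of -2.36 was close to the lowest detected level of that array (-2.87), so its difference is uncertain.

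With the median of its span group subtracted from each gene, the mitotic list kept a median of -0.75, with 21 lower and 0 higher. The interferon-stimulated list then had -1.44, the lymphoid list -1.10 and the stem cell regulators -1.02, while the red cell list had 3.75. This subtraction removes only the trend over all genes and not the steeper relation inside the mitotic list. The part of gene length in the mitotic, lymphoid and interferon results was not tested.

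**Figure D4:**
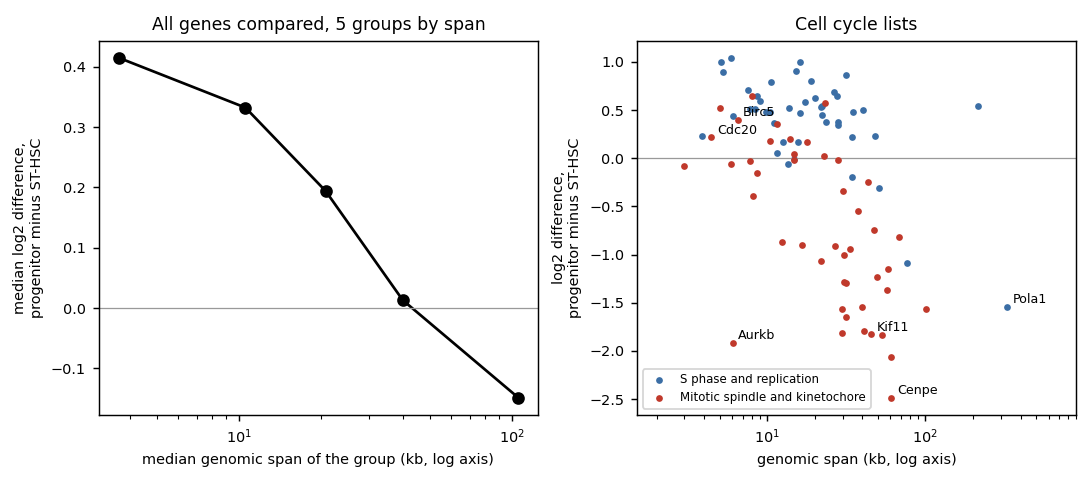
Left, the median log2 difference of progenitors from ST-HSC in 5 equal groups of genes against the median genomic span of the group (log axis), which goes from 0.42 in the shortest to -0.15 in the longest. Right, single genes of the mitotic (red) and S phase (blue) lists against their span, where long genes such as Cenpe and Pola1 lie low and short ones such as Cdc20 and Birc5 near 0.

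The motif TTTGAA, the core of the cell cycle homology element through which mitotic genes are repressed outside division, was searched in the same way. It stood in 16 of 40 mitotic promoters (40.0%) and 5 of 36 S phase promoters (13.9%), against 18.3% of all promoters and 13.1% of those compared. Of the 16 mitotic genes with the motif 6 were at least 2-fold lower, and their median was -0.45, against -0.88 for those without. The Kif11 window lies at chr19:37376282-37376381 on the plus strand of GRCm38.p6 (RefSeq) and carries the motif, as its reverse complement in capitals, 19 bases before the start.
Kif11: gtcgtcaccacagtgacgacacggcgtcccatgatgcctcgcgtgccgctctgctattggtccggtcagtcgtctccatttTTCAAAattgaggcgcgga

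The gene with the highest measured difference belongs to sphingolipid metabolism. Sphk1, the kinase that makes sphingosine-1-phosphate, gave 11890.1 intensity units in progenitors and 42.2 in ST-HSC, a difference of 8.80 ± 0.26. Other enzymes of that list were split: Alox5, 5-lipoxygenase, had a level of 1.90 in progenitors and -2.30 in ST-HSC, while Ptgs2, the inducible cyclooxygenase, was at background in progenitors and at least 10.5-fold lower. Of the sphingosine-1-phosphate exporters, Mfsd2b had 9.17 in progenitors and 8.58 in ST-HSC and Spns2 had 5.01 in progenitors and 6.37 in ST-HSC. The list held 7 higher (22.6%) and 3 lower (9.68%) genes among 31, and its median of 0.23 changed sign in 3 of 11 alternatives. With spike-in scaling 2 were higher and 9 lower.

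Of 23 amino acid and nutrient transporters 10 were higher and 0 lower (median 0.92). With spike-in scaling 3 were higher and 1 lower, with a median of 0.30. Slc38a5, a transporter of glutamine and other neutral amino acids, had a level of 5.82 in progenitors and -1.56 in ST-HSC (7.39 ± 0.23), and Slc7a5, which carries large neutral amino acids, had 2.93 in progenitors and 1.57 in ST-HSC. Among 28 antioxidant genes 11 were higher and 0 lower (median 0.86), and 27 lay above 0, against 7350 of all 12607 genes. The metallothionein genes Mt2 (8.17 in progenitors and 2.27 in ST-HSC) and Mt1 (8.91 in progenitors and 4.72 in ST-HSC) led the list. Gsr, glutathione reductase, had 7.13 in progenitors and 4.82 in ST-HSC. Of 29 polyamine, folate and nucleotide synthesis genes 27 lay above 0, and 7 were higher and 0 lower (median 0.67). Srm, spermidine synthase, had 6.66 in progenitors and 5.39 in ST-HSC, and the folate enzyme gene Mthfd1 had 5.53 in progenitors and 4.12 in ST-HSC. With spike-in scaling 5 antioxidant genes were higher (median 0.24), as with quantile normalization. The 7 calls in polyamine, folate and nucleotide synthesis dropped to 0 with spike-in scaling (median 0.05), to 2 with quantile normalization or after subtraction of the median of similarly long genes, and to 3 with normexp.

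A pair of heat shock genes differed by large amounts. Hspa1a, the inducible HSP70, had a level of 4.13 in progenitors and -1.34 in ST-HSC, and Hspb1 had 2.01 in progenitors and -2.01 in ST-HSC. Hsp90aa1 (6.02 in progenitors and 6.51 in ST-HSC) and most other chaperones were not called, and 4 of 19 (21.1%, against 10.0% over all genes) were higher, with a median of 0.45 that changed sign in 2 of 11 alternatives. In 7 of the alternatives 2 were higher. Of 29 immediate-early genes 7 (24.1%) were higher and 4 (13.8%) lower, and the median of 0.04 kept its sign in 4 of 11 alternatives. With spike-in scaling 2 were higher and 10 lower, and after the span subtraction 3 were higher and 6 lower. The list had Fosb at 7.34 in progenitors and 5.21 in ST-HSC and Jun at 9.73 in progenitors and 8.25 in ST-HSC on the higher side and Egr1 at 6.73 in progenitors and 6.69 in ST-HSC. Glycolysis genes had 2 higher (8.33%) and 1 lower (4.17%) of 24, against 10.0% and 10.2% over all genes. Aldoa stood at 9.16 in progenitors and 8.07 in ST-HSC and Aldoc at 0.99 in progenitors and 3.19 in ST-HSC. The glycolysis median of 0.38 became -0.24 with spike-in scaling. Sterol synthesis genes had a median of 0.11, with 2 higher (8.33%) and 0 lower of 24, and that median changed sign in 6 of 11 alternatives. Among 24 cell death genes 3 (12.5%) were higher and 5 (20.8%) lower, against 10.0% and 10.2% over all genes. The BH3-only gene Pmaip1, which encodes NOXA, had 3.52 in progenitors and 1.48 in ST-HSC, and the pore former Bax had 5.33 in progenitors and 4.05 in ST-HSC. Tnfsf10, which encodes the death ligand TRAIL and is itself induced by interferon, had -0.23 in progenitors and 2.09 in ST-HSC.

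Markers of other marrow cells were measured alongside. Of 16 mature B cell genes 4 were well above background in progenitors and 4 in ST-HSC, and Ms4a1 and Cd79a were at background in both. Of 24 T and NK cell genes 13 were well above background in each fraction, and their summed signal was 201 times the 75th percentile in progenitors and 103 times in ST-HSC. Cd3d and Cd2 were at background in both, while differences of the list members compared ran from -2.16 to 4.20. Of 17 marrow macrophage genes 9 were well above background in each fraction, with summed signals of 206 in progenitors and 86.8 in ST-HSC. C1qa was at background in both, while Adgre1, which encodes F4/80, had a level of -0.17 in progenitors and -2.57 in ST-HSC. Vcam1 and Slc40a1, at least 40.2-fold and 36.4-fold higher in progenitors, stand in the macrophage list as well as in the adhesion and iron lists. Of 24 endothelial and stromal genes 12 were well above background in each fraction, with Cdh5 at background in both. Their summed signals were 237 in progenitors and 279 in ST-HSC. The single genes named at background do not show that a cell type was absent. These linear sums follow their brightest members and do not measure how many such cells were present. The highest log2 level of any member was taken on each array separately, so the 2 values can come from different genes. It was 7.39 in progenitors and 6.15 in ST-HSC for the T and NK list. For the macrophage list it was 6.71 in progenitors and 5.44 in ST-HSC. By the count of called genes, the B cell list had 1 higher and 0 lower of 5 compared, the T and NK list 3 and 1 of 15, the macrophage list 6 and 0 of 12 (3 and 0 of the 6 measured on both arrays), and the endothelial and stromal list 3 and 2 of 14. The part of these cell types in the higher genes of the other lists was not tested.

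Some of the largest differences over all genes lay outside the lists. Among the highest measured was that of Ces2g, a carboxylesterase (4.20 in progenitors and -2.51 in ST-HSC). The highest bounds against background in ST-HSC included Atp1b2, a sodium pump subunit (at least 206-fold), Wfdc21 (at least 122-fold), Abcg4, a sterol transporter (at least 82.9-fold), and Col5a1, a collagen chain (at least 74.3-fold). On the lower side, Slc16a11, a monocarboxylate transporter, had 0.75 in progenitors and 4.47 in ST-HSC (-3.72 ± 0.21), Ddx4, an RNA helicase known from germ cells, had -2.20 in progenitors and 1.41 in ST-HSC, and Itih5 had -0.97 in progenitors and 2.36 in ST-HSC. Syne2, a protein of the nuclear envelope that spans 293 kb in the genome, was at background in progenitors and at least 14.7-fold lower. Gimap8, a GTPase of lymphocytes, was at least 12.2-fold lower, and Cfc1, a co-receptor for Nodal, at least 11.2-fold.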

How the data were processed

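RNA of 4 sorted marrow fractions was hybridised to Agilent arrays with Cy3, from 10 ng with spike-in controls amplified by the Quick Amp kit per the labels' protocols. The deposited values are linear spot intensity from the scanner, from which background and spatial trends had been removed array by array, per the file headers, with no scaling between arrays. Agilent Feature Extraction 10.7.1.1 is named in the submitters' processing notes. The authors also deposited a table with a ratio for every probe. Each ratio was that probe's processed signal over a constant of its array (191 for LT-HSC, 217 for ST-HSC, 137 for progenitors and 230 for Lin+ cells) for 100% of 55249 single-spot probes within 1%, so it is neither logged nor centred on genes. Its column medians were 0.0619, 0.0630, 0.0704 and 0.0738 in the order LT-HSC, ST-HSC, progenitors and Lin+ cells, and it served as an alternative. Per the file headers the arrays shared 1 slide and 1 scan, so no batch could be compared.

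Control and outlier spots were left out, with no filter on saturated spots, and spots of a probe were averaged. Each array's log2 processed signal was scaled to its 75th percentile over 55678 non-control probes. A side not well above background was set to the lowest detected level of its array if its own value was below that (-2.87 in progenitors and -3.39 in ST-HSC), and the fold is then a bound. Of 12607 genes compared, 11186 were measured on both arrays, 1234 were bounds and 187 were unresolved and entered as 0. Background flags marked 5 of 308 negative control spots on the progenitor array and 7 of 308 on the ST-HSC array. Through accessions, 26762 probes were named with the RefSeq table of GRCm38.p6, which also gave gene spans and promoters. The arrays use build mm9 per the file headers, so no array coordinate is printed. Each gene was represented by its brightest probe over the 4 arrays, and 93.6% of genes compared had a single probe or agreeing probes.

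The 37 gene lists (898 symbols, 883 on the array) and the genes to name were chosen with earlier results of these data known. The rule for named genes took the sorting and marker genes, the 5 largest differences each way per list (all members of lists up to 10) with up to 5 called members in the rarer direction, and over all genes the 12 largest measured differences and 8 largest bounds each way. Other genes in the text, including other list members and the fractions' levels printed for them, were chosen after their values were seen, and some genes within the rule are not reported here. The step that calls genes was tested on simulated data. No test across replicates was possible, and 1 array per group limits the precision. Alternatives changed the background correction (normexp), the scaling, the centring, the background filter, the choice of probe and the source of values. Python 3.11.15 with pandas 2.3.3, numpy 2.4.6 and scipy 1.17.1, and limma 3.58.1 in R 4.3.3 were used.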

Additional observations from a re-analysis of the deposited data

Results flagged for a closer look

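Probes that the array design names by a genomic interval, and that no gene list used, gave signal above the level in negative control spots. Of 16193 such probes, 21.9% were well above background on the progenitor array and 24.6% on the ST-HSC array. The background flag marked 1.62% of negative control spots on the progenitor array and 2.27% on the ST-HSC array. Of 4447 interval probes compared, 699 were at least 2-fold higher in progenitors and 434 at least 2-fold lower, with a median difference of 0.35. The base over all 12607 genes compared was 1266 higher (10.0%) and 1284 lower (10.2%), with a median of 0.17. The balance of higher and lower genes depended on the scaling. Whether the counts of interval probes do so too was not tested. What these probes detect was not tested.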

How the results depend on the processing

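The processing changed how many genes were called in each direction, from the reported 1266 higher, 1284 lower and 49.6% higher. With normexp 615 genes were higher and 724 lower (45.9%), with the percentile over detected probes 795 were higher (29.6%), and with spike-in scaling 509 were higher and 3170 lower (13.8%). Without background filter and floor 2064 were higher (52.8%). The share was 36.7% with median scaling, 38.9% with quantile normalization, 33.1% with the median gene at 0, 47.6% for genes well above background on both arrays and 37.4% after subtraction of the span group's median, and the cause of these shifts was not tested. Of 214 called genes of the naming rule, those with a value kept their direction under each of the 11 alternatives, but 171 had a value among genes well above background on both arrays and 211 with the mean of probes. At least 2-fold in that direction were 168 with spike-in scaling and 172 with normexp. The 214 genes were chosen at 2-fold or more, and no scaling moved the median measured gene further than from 0.21 to -0.42. A kept direction was therefore close to fixed in advance. The authors' table holds the same signals over nearly the same constants, and it gave 1266 higher and 1285 lower. The planned normexp on the mean signal was not run, since the files used here hold no such column, and the median signal was used in its place. That alternative and the span subtraction were chosen after seeing the data. No paired analysis was possible because each fraction had 1 array. Signals close to background, such as those of Klf1 and Car1 in ST-HSC, limit the size of the largest differences.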
